A study of Mus musculus with 4 samples.

Results

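Granulosa cells of the mouse ovary that devoted a large share of their transcripts to Shroom3, Kcnq5, Fgd5, Prss23 and Ptprz1 are described here. Each cell with at least 5000 unique molecular identifiers (UMIs, 1 per captured transcript) and at most 20% mitochondrial UMIs was taken as a granulosa cell if at least 3 of the 6 genes Foxl2, Fshr, Nr5a2, Kctd14, Gatm and Amhr2 had a UMI and the stromal genes Dcn and Col1a1 together were under 5 per 10000 UMIs. Of 33639 deposited cells, 8179 met these conditions. They were ranked by the summed share of their UMIs in the 5 score genes, and the top 20%, 1636 cells or 4.86% of all deposited cells, are called score-high cells below. The remaining 6543 granulosa cells are the comparison group. Because the 5 genes chose the cells, their levels and every other difference between score-high and remaining granulosa cells are given as a description with no test.

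Ovaries came from mice whose treatment is given for postnatal day 25, with saline vehicle, with doxorubicin in 2 weekly doses of 3 mg/kg, with recombinant human anti-Müllerian hormone (AMH) at 0.75 mg/kg, or with both agents. They were collected 4 hours after the last doxorubicin dose, at an age that is not given in the sources used here. In each group 1 ovary from each of 5 animals was pooled into 1 single-cell library, with a target of 10000 cells, so there are 4 libraries and no replicate library. Differences between libraries are therefore differences between these pools and not tested effects of the treatments, and all intervals below cover counting error only. Values are listed throughout in the order control, doxorubicin, doxorubicin with AMH, and AMH.

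Granulosa cells surround and nourish the oocyte, divide as the follicle grows under follicle-stimulating hormone, and later specialise into mural cells, which make oestradiol and inhibin, and cumulus cells, which stay with the oocyte. Follicles that are not selected undergo atresia, in which granulosa cells stop dividing and die. AMH, a TGF-β family hormone made by granulosa cells of small growing follicles, signals through its receptor Amhr2 and the BMP branch of SMAD proteins and restrains follicle growth. Doxorubicin is a chemotherapeutic that poisons topoisomerase II and damages DNA. Of the score genes, Shroom3 encodes an actin-binding protein that helps to constrict the apical side of epithelial cells, Kcnq5 a voltage-gated potassium channel, Fgd5 an exchange factor of the Cdc42 GTPase best known in endothelial cells, Prss23 a secreted serine protease present in the ovary, and Ptprz1 a receptor-type tyrosine phosphatase that binds pleiotrophin.

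The promoters of the score genes and of genes that accompanied them were read to show what sequence lies upstream of this shared pattern. In the GRCm38.p6 annotation the genes lie at chr5:92683435-92965318 (Shroom3, plus strand), chr1:21398403-21961942 (Kcnq5, minus strand), chr6:91978878-92076004 (Fgd5, plus strand), chr7:89507783-89527187 (Prss23, minus strand) and chr6:22875502-23052916 (Ptprz1, plus strand). The 250 bases before the most upstream start in a RefSeq table of the same assembly are given below for the pair that names the group and for Prss23, followed by Ccn1 and Amotl2, 2 genes of the Hippo pathway that were higher in score-high cells. The table's Shroom3 window, chr5:92809132-92809381 (plus strand), lies within the gene as annotated above, whose first base is farther upstream. The others are chr1:21962651-21962900 (Kcnq5, minus strand), chr7:89527188-89527437 (Prss23, minus strand), chr3:145649986-145650235 (Ccn1, minus strand) and chr9:102717554-102717803 (Amotl2, plus strand). Capitals mark a GATA motif (AGATAA) in Prss23 and a TEAD motif, here on the reverse strand as CATTCC, in Ccn1 and Amotl2.
Shroom3: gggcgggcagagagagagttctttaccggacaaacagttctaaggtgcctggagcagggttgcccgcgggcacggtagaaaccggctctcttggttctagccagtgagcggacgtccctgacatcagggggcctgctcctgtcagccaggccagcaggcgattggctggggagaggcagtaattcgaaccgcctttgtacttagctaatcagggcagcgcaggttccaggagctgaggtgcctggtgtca
Kcnq5: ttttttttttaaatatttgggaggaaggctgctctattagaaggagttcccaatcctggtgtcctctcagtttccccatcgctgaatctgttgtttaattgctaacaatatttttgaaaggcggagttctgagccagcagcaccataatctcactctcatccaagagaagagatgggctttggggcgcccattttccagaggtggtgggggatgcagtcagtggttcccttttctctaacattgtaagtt
Prss23: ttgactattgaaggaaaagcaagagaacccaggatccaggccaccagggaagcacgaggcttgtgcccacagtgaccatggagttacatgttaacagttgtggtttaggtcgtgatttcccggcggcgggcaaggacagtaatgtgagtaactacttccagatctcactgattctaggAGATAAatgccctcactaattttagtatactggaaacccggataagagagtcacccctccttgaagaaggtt
Ccn1: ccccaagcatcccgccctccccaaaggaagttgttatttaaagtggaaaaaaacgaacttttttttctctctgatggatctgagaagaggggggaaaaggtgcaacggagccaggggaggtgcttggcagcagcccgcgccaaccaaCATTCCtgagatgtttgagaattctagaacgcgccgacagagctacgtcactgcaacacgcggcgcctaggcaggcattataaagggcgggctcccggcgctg
Amotl2: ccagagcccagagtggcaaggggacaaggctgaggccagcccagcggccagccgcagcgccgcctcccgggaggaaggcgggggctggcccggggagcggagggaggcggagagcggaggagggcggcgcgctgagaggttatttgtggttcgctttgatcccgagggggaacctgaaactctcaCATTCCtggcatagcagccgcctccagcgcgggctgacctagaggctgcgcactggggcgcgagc

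On either strand, 7 motifs were searched in the 32851 promoters of the table. The NR5A motif CAAGGTCA, bound by receptors such as Nr5a2, was present in 1.33% of promoters and the GATA motif AGATAA in 9.99%. The forkhead (FOX) motif TGTTTAC was present in 3.17% and the TEAD motif GGAATG in 12.6%. The AP-1 motif TGANTCA was present in 6.75%, the cAMP response element TGACGTCA in 1.55% and the E-box CANNTG in 66.2%, the most of the 7. Among the score genes, Prss23 alone held a match, to GATA and to the E-box, and the windows of Shroom3, Kcnq5, Fgd5 and Ptprz1 held none of the 7. The Kcnq5 window had 44.4% G and C bases and that of Shroom3 60.4%, against a median of 52.4% over all promoters. Of the 9 genes on the Hippo list, 7 were in the table and 6 of these, all but Lats2, held the TEAD motif. Among the 12 genes with the largest excess in score-high cells, named below, 8 were in the table, of which 1 held TEAD, 1 FOX and 5 the E-box. A match is a string of letters only, and its absence covers only this window.

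The score was a continuous range without a gap, and the score-high cells are its upper end. Whether they form a separate cell state was not tested. Score genes took a median of 36.9 per 10000 UMIs in score-high cells and 6.21 in the remaining granulosa cells, with a highest value of 145. The lowest score-high cell stood at 24.07 and the highest remaining cell at 24.06, and 440 cells lay within 10% of this threshold, 198 of them score-high (12.1% of that group). The 100 cells just above and the 100 just below it were alike in the score genes themselves, with Kcnq5 at 1798 and 1688 UMIs per 1000000 (CPM), Shroom3 at 234 and 276, and Prss23 at 328 and 297. Outside the score, Ghr was at 531 CPM just inside and 375 just outside, Gpc6 at 178 and 101, and Inhba at 260 and 280. Amh, lower in score-high cells as a whole, was at 41.0 CPM just inside and 31.8 just outside.

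**Figure D1:**
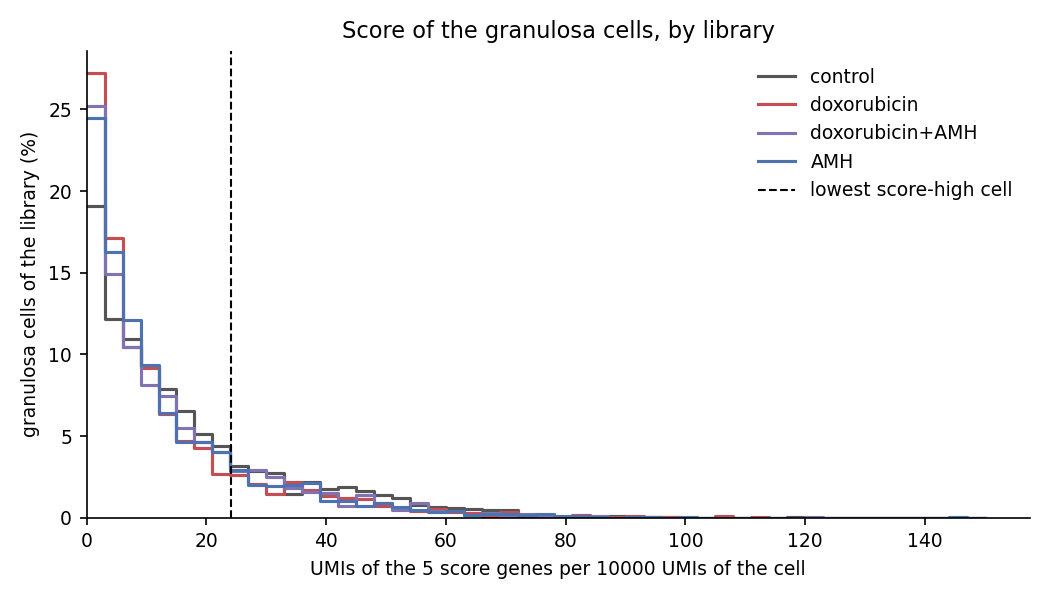
Share of gated granulosa cells (y axis, percent of each library) by the summed share of UMIs in the 5 score genes (x axis, per 10000 UMIs), 1 line per library; the dashed line marks the lowest score-high cell at 24.07. The distribution declines broadly in all 4 libraries and shows no separate group of cells at the threshold.

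Kcnq5 carried the score. It supplied 74.4% of the score UMIs in score-high cells, Shroom3 11.2%, Prss23 10.5%, Fgd5 2.38% and Ptprz1 1.48%. All 5 genes were seen together in 34.2% of score-high cells (33.3%, 40.1%, 22.3% and 40.7% by library) and in 4.37% of the others. At least 4 were seen in 64.9% and 18.0%. When cells were chosen on the other 4 genes only, the gene left out was still higher in the chosen cells, 3.22-fold for Shroom3, 2.58-fold for Kcnq5, 5.16-fold for Fgd5, 3.41-fold for Prss23 and 4.64-fold for Ptprz1. The 5 genes were chosen together on these data, so this is a description of the score. A ranking without Kcnq5 kept 990 (60.5%) of the 1636 cells.

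Score-high cells made up 24.4% (95% Clopper-Pearson interval 22.6 to 26.3%) of control granulosa cells, with 513 of 2103. The share was 18.0% (16.3 to 19.8%) with doxorubicin, 334 of 1858, and 19.5% (17.8 to 21.4%) with doxorubicin and AMH, 364 of 1862. With AMH alone it was 18.0% (16.5 to 19.7%), 425 of 2356. The control library was above the other 3, whose intervals overlapped one another. The higher control value was also present in the median score of all granulosa cells, 11.5 per 10000 UMIs against 7.51, 8.81 and 8.08. Without Kcnq5 in the score the shares were 24.8%, 20.5%, 13.9% and 20.2%, with the combined library lowest.

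Score-high and remaining granulosa cells had like depths in 3 libraries, and score-high cells were deeper with AMH alone. Median UMI counts of score-high cells were 27164, 28040, 29105 and 31417, and those of the remaining granulosa cells 28568, 28628, 28106.5 and 24374. Median numbers of genes seen with AMH were 6067 and 5368. In all, score-high cells held 20455275, 14747493, 15313128 and 21318662 UMIs. Library pairs shared 11 to 24 cell barcodes among all deposited cells and none among score-high cells. Doublet scores marked 4.83% of score-high and 8.47% of remaining cells, and both stayed in.

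Kcnq5 was at 3099, 2837, 3251 and 3101 CPM in score-high cells and at 589, 472, 661 and 614 CPM in the others. It supplied 74.4% of the score UMIs and 1 threshold served all libraries, so its near even level in score-high cells largely follows from the choice of cells. Shroom3 stood at 557 and 605 CPM in the control and doxorubicin libraries and at 357 in each of the libraries with AMH. Its log2 ratios were -0.63 for AMH over control and -0.75 for the combination over doxorubicin. In the remaining granulosa cells Shroom3 was at 125, 99.8, 42.6 and 80.2 CPM, also lower with AMH in both pairs. Prss23 was at 451, 487, 384 and 426 CPM, Fgd5 at 92.1, 116, 72.5 and 111, and Ptprz1 at 68.3, 88.2, 39.6 and 51.2. All score genes but Kcnq5 were lowest, or level with the lowest, in the combined library.

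Detection of the score genes was compared after thinning every cell to 5000 UMIs, beside macrophage-gated and endothelial-gated cells as a measure of free RNA. Kcnq5 was seen in 99.5% of thinned score-high cells, 69.1% of the remaining granulosa cells, 8.40% of 369 macrophage-gated cells and 5.82% of 911 endothelial-gated cells. Shroom3 was seen in 56.2%, 20.9%, 3.79% and 11.0% of the same 4 classes. By library, thinned Shroom3 ranged from 48.4% (the combination) to 61.4% (doxorubicin) of score-high cells. These shares restate the choice of cells, apart from those of the other cell types. Fgd5 was seen in 27.2% of score-high cells but in 40.2% of endothelial-gated cells. Unthinned, the shares in score-high cells were 79.5% for Shroom3, 100% for Kcnq5 and 58.5% for Fgd5. Median depths before thinning were 28434, 27318, 11920 and 18928 UMIs.

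The 6 gate genes were unevenly represented, and as every cell needed at least 3 of them, they are no check of the granulosa label. Nr5a2, a nuclear receptor required for ovulation, was higher in score-high cells in all 4 libraries, at 727, 560, 562 and 451 CPM against 440, 350, 374 and 343. Fshr, the receptor for follicle-stimulating hormone, was at 126, 94.6, 83.7 and 67.1 against 116, 116, 111 and 92.4, slightly higher in the control and modestly lower elsewhere. Foxl2 and Amhr2 were modestly lower, Amhr2 with 85.4, 86.0, 76.9 and 78.2 CPM against 122, 137, 100 and 108. Kctd14 and Gatm, listed here as genes of small-follicle granulosa cells, were much lower, Gatm at 8.41, 13.1, 10.2 and 15.7 CPM against 72.3, 66.6, 52.0 and 72.5. Low Gatm was shared with the cells in the top 20% by Inhba and by Slc38a5, at 12.1 and 16.9 CPM with the libraries pooled against 11.9 in score-high cells, and Nr5a2 was at 639 CPM in the Inhba-high cells against 576.

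Genes of most other cell types were scarce in score-high cells, other than some contractile and epithelial ones. Of 8 genes each on the macrophage, lymphocyte and oocyte lists, none reached a mean of 20 CPM, the minimum used for all gene comparisons. The median cell had 0 UMIs of the macrophage, lymphocyte, oocyte, erythroid and endothelial lists, and the theca and stroma lists took 3.17 and 0.387 per 10000 UMIs against 3.70 and 0.482 in remaining cells. Several defining markers were near 0: the pericyte gene Rgs5 was at 0.489, 0.746, 0.653 and 2.11 CPM, the endothelial gene Kdr at 1.66, 0.271, 1.04 and 1.31, and the leukocyte gene Ptprc at 3.52, 0.339, 0.131 and 0.797. Of the 8 endothelial genes listed, Pecam1 was at 27.5, 18.4, 16.2 and 24.1 CPM in score-high cells against 38.9, 23.8, 22.0 and 32.1, and the other 7 reached at most 5.03 CPM in any library. Of 8 smooth muscle genes 3 passed. Acta2, smooth muscle actin, was at 95.1, 78.0, 68.4 and 91.7 CPM against 106, 66.0, 130 and 173, Myh11 at 12.3, 4.81, 9.53 and 20.7 against 32.9, 17.6, 30.1 and 48.5, and Tagln at 74.6, 57.1, 42.2 and 73.2 against 59.6, 38.9, 77.6 and 105. Of 8 epithelial genes 3 passed, and none of these or of the smooth muscle genes was higher past 1.5-fold in any library. The part of other cells in the results was not tested.

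Outside the score and gate genes, 272 of 6676 genes (4.07%) were at least 1.5-fold higher in score-high than in remaining granulosa cells in all 4 libraries, and 289 (4.33%) were lower. In single libraries the share higher past that fold was 6.11%, 7.65%, 5.9% and 5.8%, and the share lower 7.74%, 8.72%, 6.25% and 8.42%. Ratios are log2 of CPM plus a pseudocount of 5, and the same contrast chose the cells. The median over all genes was -0.02, -0.02, -0.01 and -0.02. With median-of-ratios scaling, which moves that median from -0.02 to 0.08, 338 genes were higher and 181 lower.

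Growth hormone receptor, Ghr (chr15:3317760-3583492, minus strand), had the largest excess. Score-high cells held 1205, 1413, 815 and 875 CPM and the remaining cells 136, 108, 81.1 and 111, log2 ratios of 3.10, 3.65, 3.25 and 2.93. Glypican-6, Gpc6, a heparan sulphate proteoglycan of the cell surface, came next with 457, 384, 285 and 437 CPM against 51.4, 50.9, 35.4 and 63.1. For both genes every library of score-high cells lay above every library of the others.

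The other 10 genes with the largest excess had varied roles. Col11a1, a fibrillar collagen chain, was at 265, 394, 181 and 187 CPM against 51.0, 59.3, 38.5 and 43.6. Fbn2, a microfibril protein, was at 421, 480, 270 and 429 CPM against 114, 103, 53.7 and 77.7. Adamts5, a protease of proteoglycans such as versican, was at 116, 126, 81.4 and 77.1 CPM against 21.2, 16.5, 13.7 and 16.1. The smallest log2 ratio among these 3 genes in any library was 1.84, for Fbn2 in the control. Cald1, caldesmon, which binds actin and myosin, was at 891, 999, 591 and 783 CPM against 261, 221, 162 and 233, and the LIM protein gene Fhl1 at 123, 149, 124 and 154 against 22.7, 24.2, 26.2 and 38.6. Prr16 (89.95, 79.5, 63.1 and 73.6 CPM), the protocadherin Pcdh9 (569, 487, 289 and 594), Pid1 (304, 363, 210 and 210), Neto2 (52.1, 84.6, 43.8 and 49.4) and the unnamed transcript Gm15866 (40.2, 47.7, 33.3 and 32.3) completed the 12. With the libraries pooled, the remaining cells held these at 8.72, 102, 56.7, 11.7 and 6.04 CPM in the same order. Adamts5, Prr16, Neto2 and Gm15866 were under 20 CPM there and passed the level filter through score-high cells.

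**Figure D2:**
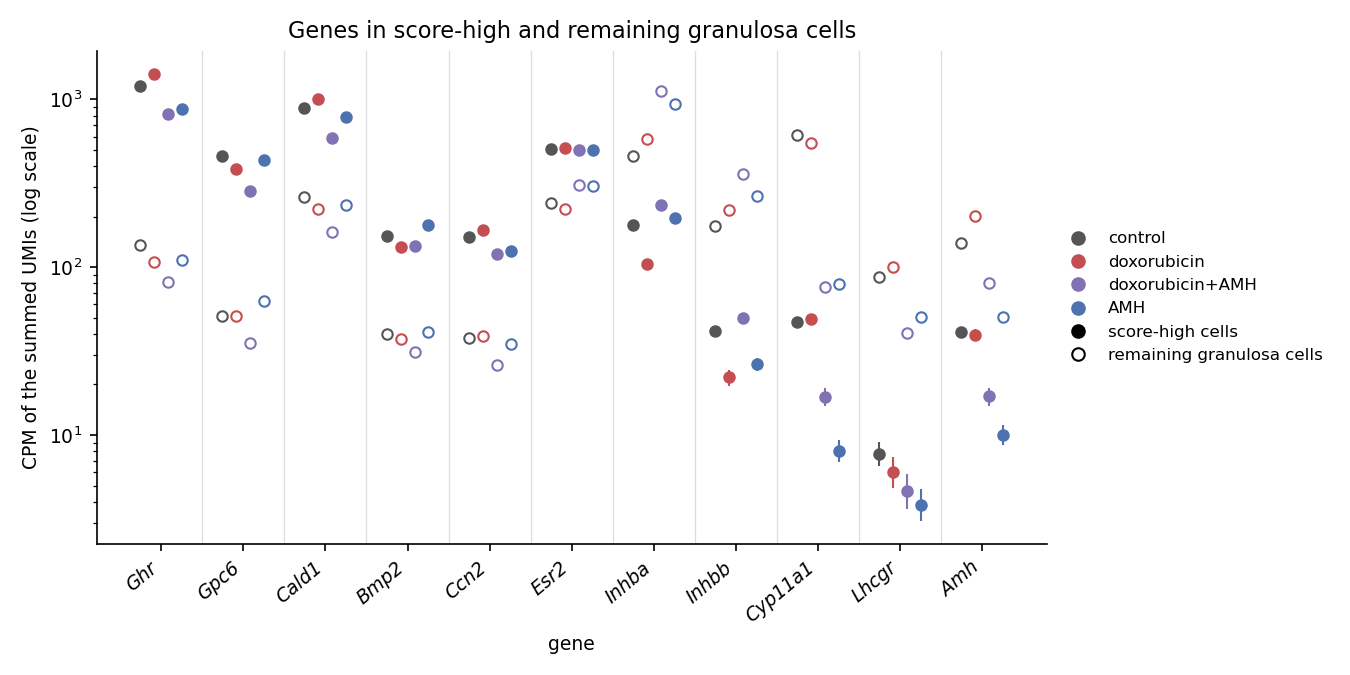
Levels of 11 genes (x axis) in CPM on a log axis, 1 colour per library; filled points are score-high cells, open points the remaining granulosa cells, bars the exact 95% Poisson intervals. Ghr, Gpc6, Cald1, Bmp2, Ccn2 and Esr2 are higher in score-high cells and Inhba, Inhbb, Cyp11a1, Lhcgr and Amh lower, in all 4 libraries.

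Genes on a list for atretic granulosa cells were higher as a group. All 8 passed the level filter, all 8 were higher in each of the 4 libraries, as were 36.0% of all genes tested. Of the 8, 5 were past 1.5-fold in all 4, beside 4.07% of all genes tested. The list's median log2 ratio was 1.43, 1.58, 1.31 and 1.11. This list, which holds Ghr and Cald1, was drawn up with these data known. Neither the counts for the group nor the levels of its genes are therefore independent evidence of atresia. Pik3ip1, an inhibitor of PI3-kinase, was at 140, 147, 121 and 129 CPM against 27.8, 25.0, 24.7 and 38.2. Foxo1, the transcription factor that PI3-kinase signalling keeps out of the nucleus, was at 1121, 1011, 999 and 1044 CPM against 464, 424, 646 and 644. Itih5, a hyaluronan-binding matrix protein, was at 347, 463, 297 and 352 CPM against 111, 119, 98.4 and 130. The other 3 were not past 1.5-fold in every library: Bcl2l11, which encodes the pro-apoptotic protein Bim, was at 50.1, 61.6, 43.6 and 65.0 CPM against 34.2, 38.1, 38.1 and 45.5, Sesn1 at 76.7, 81.3, 77.7 and 74.6 against 59.7, 54.2, 59.4 and 60.9, and Phlda1 at 50.3, 43.9, 43.2 and 62.9 against 36.6, 25.1, 17.8 and 33.3.

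Hippo pathway genes, targets and parts of the YAP and TEAD switch that responds to cell shape and contact, were also higher. Of 9 listed, 7 passed the filter, all 7 were higher in every library and 3 were past 1.5-fold in all 4, beside 36.0% and 4.07% of all genes tested, with medians of 0.41, 0.64, 0.76 and 0.80. The target Ccn2, connective tissue growth factor, was at 151, 167, 121 and 124 CPM against 37.7, 39.1, 26.1 and 35.0. Ccn1, the second classical target, was at 310, 323, 318 and 371 CPM against 124, 131, 103 and 128, and the feedback inhibitor Amotl2 at 89.5, 99.6, 86.5 and 121 against 58.0, 49.0, 40.7 and 51.0. Ccn1 and Amotl2 are the genes whose TEAD motifs are shown above. The pathway's own factors differed less, Yap1 by log2 ratios of 0.22, 0.20, 0.32 and 0.30 and Tead1 by 0.25, 0.49, 0.74 and 0.78. Ankrd1, another target, was at 0.0978, 0.0678, 0.0653 and 0.0469 CPM in score-high cells.

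Genes with roles in hormone reception and signalling diverged. Esr2, oestrogen receptor β, was at 507, 513, 498 and 499 CPM against 241, 221, 307 and 305, near constant over the libraries of score-high cells. Bmp2, a ligand of the pathway that AMH shares, was at 152, 131, 135 and 177 CPM against 40.1, 37.1, 31.2 and 41.1. Its type I receptor Bmpr1b was at 1678, 1549, 1513 and 1535 CPM against 769, 710, 794 and 819. Of the 18 other granulosa genes that passed the filter, Esr2 and Bmp2 were the 2 that were higher past 1.5-fold in all libraries, and 6 were lower. Over all genes tested the shares were 4.07% and 4.33%. Gja1, the gap junction protein connexin 43, lay close to the others, with log2 ratios of 0.42, 0.14, 0.01 and 0.04, as did Serpine2 with 0.19, -0.03, -0.07 and -0.13.

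Genes of growing antral follicles were lower. Of 9 listed for antral mural granulosa cells, 7 passed and 4 were lower past 1.5-fold in all libraries, beside 4.33% of all genes, with medians of -0.98, -1.64, -1.45 and -1.84. Lhcgr passed the level filter through the remaining cells. Inhba, the activin and inhibin βA subunit, was at 178, 105, 236 and 197 CPM against 458, 577, 1117 and 936. Inhbb, the βB subunit, was at 41.5, 22.0, 49.6 and 26.4 CPM against 177, 220, 359 and 265. For both subunits every library of score-high cells lay below every library of the others. Hsd17b1, which converts oestrone to oestradiol, was at 144, 114, 263 and 147 CPM against 289, 366, 725 and 538. Fst, follistatin, which binds activin, was closer, at 527, 441, 662 and 467 CPM against 513, 508, 911 and 673. Amh, from the cumulus list and the hormone given in the study, was at 41.2, 39.5, 17.0 and 10.0 CPM against 139, 203, 80.0 and 50.3. Of the 6 small-follicle genes that passed, 4 were lower past 1.5-fold in all libraries, against the same background, Gatm and Kctd14 of the gate among them. Gatm, too, passed the level filter through the remaining cells.

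Score-high cells held fewer transcripts of the cell cycle. All 12 S phase genes that passed and all 17 G2/M genes were lower in every library, as were 40.01% of all genes tested. Of them 6 and 15 were past 1.5-fold in all 4, beside 4.33% of all genes. Within score-high cells alone, 7 and 13 of them passed the level filter. G2/M medians were -0.85, -0.92, -0.88 and -1.22. Top2a, topoisomerase IIα and the enzyme that doxorubicin poisons, was at 99.0, 84.1, 160 and 81.4 CPM against 223, 203, 325 and 231. Ccnd2, the D-type cyclin of granulosa cells, was at 148, 139, 181 and 148 CPM against 357, 371, 408 and 363. By cell, 38.4% of score-high cells had at least 5 UMIs of the S and G2/M lists after thinning (33.5%, 34.1%, 44.5% and 42.6% by library), against 57.3% of the others (50.8%, 52.5%, 63.7% and 61.7%). Unthinned, nearly all cells passed that mark, 95.3% and 96.3%.

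Steroid and cholesterol synthesis was lower still, with a qualification on which cells it was compared with. Of the 12 genes that passed, 11 were lower past 1.5-fold in all libraries, beside 4.33% of all genes, with medians of -1.59, -1.68, -1.25 and -1.32. Star, under 20 CPM in every library of score-high cells, passed the level filter through the remaining cells. Cyp11a1, the first enzyme of steroid synthesis, was at 47.4, 49.0, 16.9 and 8.02 CPM against 613, 548, 76.3 and 79.5. Cyp17a1, the androgen-forming enzyme of theca cells, was at 23.6, 15.9, 1.70 and 1.45 CPM against 305, 293, 24.9 and 19.7. Fdx1, the electron donor of Cyp11a1, was at 185, 174, 164 and 126 CPM against 860, 812, 444 and 412. Hsd17b7 alone was higher, at 36.6, 33.0, 24.4 and 26.5 CPM against 24.0, 21.8, 12.2 and 15.3. Some of the remaining granulosa cells carried theca genes: among cells with Cyp17a1, Cyp11a1 and Star under 5 per 10000 UMIs, the median over libraries went from -2.80 to -0.17 for Cyp17a1, from -3.03 to -0.69 for Cyp11a1 and from -1.45 to -0.70 for the list. Cyp17a1, Cyp11a1 and Star set that limit, so the smaller differences of these genes follow from it, as in part does that of the list, which holds Cyp11a1 and Star. In the same cells the antral list was -1.40 in place of -1.54, and the G2/M list -1.14 in place of -0.90.

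The 12 genes furthest below included further ones of other cells. Hbb-bs, a red-cell globin that shares 55.5% of its 60-base stretches with other genes, was at 7.63, 22.3, 7.44 and 3.61 CPM against 223, 160, 228 and 60.2. Igfbp7, a secreted protein that binds insulin-like growth factors, was at 47.2, 43.0, 50.2 and 46.4 CPM against 340, 271, 281 and 323. Lhcgr, the luteinising hormone receptor of theca and preovulatory granulosa cells, was at 7.72, 6.03, 4.64 and 3.85 CPM against 88.0, 100, 40.4 and 50.7, and Star, which moves cholesterol into mitochondria, at 14.9, 15.3, 9.34 and 6.94 against 96.9, 66.3, 52.0 and 44.2. In cells low in steroidogenic transcripts the Lhcgr difference was -1.23 and not -2.76, and that of Star -0.54 and not -2.02. Star helped to define those cells, so its own change follows from the choice. Gas6, a ligand of TAM receptors, was at 112, 95.1, 39.1 and 44.3 CPM against 553, 615, 168 and 198. Defb19 (18.2, 14.0, 20.6 and 11.6 CPM), Cacnb2 (15.0, 18.1, 11.8 and 26.7), Smoc2 (24.2, 16.6, 14.6 and 12.5), Ccl21a (2.84, 8.48, 1.89 and 13.0, a chemokine gene with near-identical copies), Inhbb, Cyp11a1 and Cyp17a1 were the others. With the libraries pooled, Hbb-bs, Lhcgr, Star, Defb19, Cacnb2, Smoc2, Ccl21a and Cyp17a1 were under 20 CPM in score-high cells. These genes passed the level filter through the remaining cells.

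Partners of the score genes did not all follow them. Of 17 genes of the Shroom family and the apical actomyosin belt, 13 passed, none was higher past 1.5-fold in all libraries and 1, the myosin light chain Myl9, was lower. The shares over all genes tested were 4.07% and 4.33%. Rock1, the kinase that Shroom3 recruits, was at 227, 219, 206 and 227 CPM against 202, 183, 194 and 194, and Shroom2 at 36.4, 37.7, 28.8 and 30.8 against 26.9, 22.3, 17.4 and 21.8. Both were higher in all 4 libraries, Rock1 by log2 ratios of at most 0.25 and Shroom2 by 0.37, 0.64, 0.59 and 0.42, past 1.5-fold with doxorubicin and in the combination. No other KCNQ channel or KCNE subunit among 9 reached the level filter, and the most abundant in score-high cells, Kcnq1, was at 2.93, 3.93, 1.04 and 1.59 CPM.

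Of 9 FGD exchange factors and Cdc42 genes, 4 passed. Cdc42ep3, an effector of Cdc42, was at 115, 135, 96.1 and 121 CPM against 33.7, 28.6, 25.7 and 38.8, and Cdc42 itself was level at 272, 265, 238 and 240 against 270, 262, 235 and 242. Fgd3, under the filter over both classes, was at 27.6, 24.0, 18.2 and 17.9 CPM against 4.46, 4.81, 1.88 and 2.77.

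Ligands and partners of Ptprz1 were scarce: 3 of 8 passed, the ligand pleiotrophin (Ptn) was at 1.08, 1.08, 1.04 and 5.39 CPM against 15.4, 18.5, 11.4 and 13.3, and Tnc, tenascin C, at 74.99, 75.9, 80.5 and 72.6 against 55.9, 47.8, 60.6 and 61.4. Among 10 serine proteases and serpins, 5 passed and 2 were lower past 1.5-fold in all libraries, beside 4.33% of all genes tested. Prss35, 1 of these, was at 23.4, 15.3, 31.0 and 22.6 CPM against 97.1, 80.8, 98.9 and 103. Among basement membrane genes, of which 9 of 13 passed, Col4a5 was higher at 210, 226, 193 and 221 CPM against 81.8, 69.3, 62.5 and 79.4, and 3 were lower past 1.5-fold, including Col4a1 at 57.2, 71.5, 40.1 and 45.7 against 152, 124, 87.3 and 103. Over all genes tested 4.07% were higher and 4.33% lower past that fold in all libraries.

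Score-high cells lay mostly apart from the upper ends of other granulosa scores. By construction each score's top group held 20% of all granulosa cells. Only 58 (3.55%) were in the top 20% by Inhba and 83 (5.07%) by Gatm and Kctd14 together. By Slc38a5, an amino acid transporter, 248 (15.2%) were, with 13.5%, 10.8%, 24.2% and 12.9% by library, each under the share of all granulosa cells of that library, 15.5%, 15.8%, 28.7% and 20.4%. In all, 356 cells (21.8%) were in at least 1 of the 3, beside 51.95% of all granulosa cells. The cycling share of 38.4% in score-high cells compared with 68.2% of Inhba-high, 52.5% of Gatm and Kctd14-high and 72.9% of Slc38a5-high cells. Some genes that were low in score-high cells were about as low in 1 or more of these groups. With the libraries pooled, Gas6 was at 73.0 CPM in score-high, 79.2 in Inhba-high, 431 in Gatm and Kctd14-high and 73.4 in Slc38a5-high cells. In the same order Igfbp7 was at 46.7, 52.2, 70.2 and 47.3 CPM, Lhcgr at 5.57, 17.5, 9.45 and 5.11, and Cyp11a1 at 29.5, 67.4, 40.7 and 28.7.

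Across 5 bins of equal cell number, from lowest to highest score, the genes followed different courses. Ghr was at 79.1, 57.0, 68.5, 231 and 1066 CPM, so that its excess lay almost wholly in the upper end. Ccn2 climbed at every step, at 9.26, 24.2, 37.3, 65.9 and 140 CPM, as did Thbs1, thrombospondin 1, at 74.3, 145, 212, 307 and 672. Inhba peaked in the bin next to the lowest, at 820, 1055, 721, 494 and 181 CPM, in each library as in the pool. Amh, at 91.4, 171, 134, 72.3 and 26.4, peaked there in 3 libraries, and in the control in the middle bin, at 56.4, 176, 199, 116 and 41.2. The share of cycling cells was 48.3%, 65.4%, 62.6%, 53.1% and 38.4%. The highest bin had the smallest share in 3 libraries, but in the control the lowest bin was smaller still, at 29.4% against 33.5%, as was its Top2a at 84.7 against 99.0 CPM. Cyp11a1, at 1169, 96.8, 53.4, 34.4 and 29.5 CPM, was concentrated in the lowest bin, where the summed theca list was also at 5269 CPM against 413 in the highest. In the control, the bin next to the lowest still held 185 CPM of Cyp11a1, and the part of theca transcripts in these courses was not tested.

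**Figure D3:**
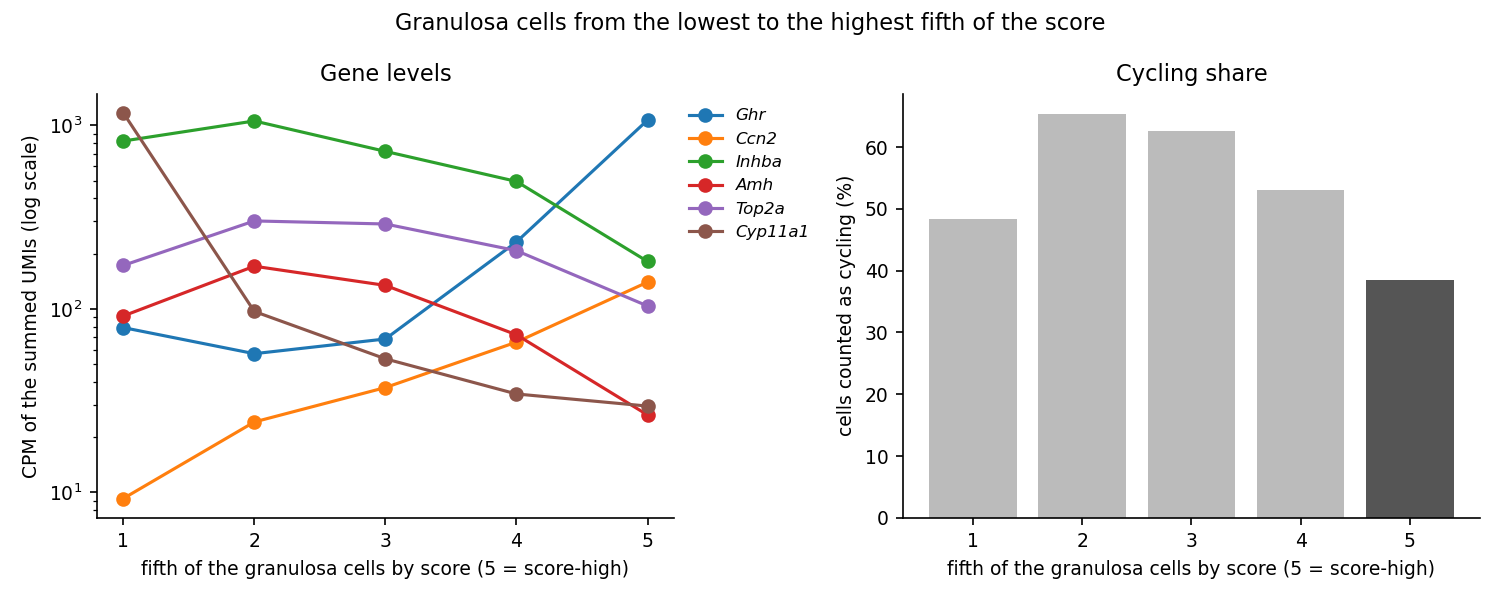
Levels of 6 genes (CPM, log axis) and the share of cycling cells (percent, bars) over 5 equal bins of the score from lowest to highest, 4 libraries pooled; the highest bin is the score-high group. Ghr and Ccn2 are highest, and Inhba, Amh, Top2a and Cyp11a1 lowest, in the highest bin.

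Long genes were more frequent among the higher genes. Of the 272, 151 (55.5%) span at least 100 kb, compared with 19.2% of all genes tested and 16.6% of the lower ones. Such genes took 18.5% of UMIs in score-high cells and 13.9% in the others, or 18.3% and 13.9% with the score genes left out. Other signs of RNA quality were alike: ribosomal protein genes took 20.1% and 21.0%, mitochondrial genes 6.57% and 6.62% and Malat1 2.24% and 2.15%. Dissociation stress genes, 19 of 19 measured, had medians of -0.06, -0.18, -0.07 and -0.16. The part of intronic reads in the score genes was not tested, and neighbouring or overlapping transcripts lie on the opposite strand of Shroom3, Kcnq5, Fgd5 and Prss23.

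Between the doxorubicin and control libraries few genes differed within score-high cells. Of 6490 genes, 6 (0.0924%) were higher past 1.5-fold and 19 (0.293%) lower. Between the combination and AMH alone, 50 (0.77%) were higher and 42 (0.647%) lower, and none was higher past that fold in both pairs, while 6 were lower in both. In the remaining granulosa cells doxorubicin over control gave 3 higher (0.0462%) and 26 lower (0.401%), and the combination over AMH 4 (0.0616%) and 40 (0.616%).

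The p53 pathway, which DNA damage activates, was little different within score-high cells. Of 30 listed targets, 10 passed, 7 of these were above 0 for doxorubicin over control, beside 42.1% of all genes, and 1, Cdkn1a, was past 1.5-fold, with a median of 0.13 beside -0.02 over all genes. For the combination over AMH the median was 0.06. Cdkn1a, the cell cycle inhibitor p21, was at 14.5 CPM (exact Poisson interval 12.9 to 16.2), 33.0 (30.2 to 36.1), 18.2 (16.1 to 20.5) and 17.2 (15.5 to 19.0). The doxorubicin library stood above the other 3, whose intervals overlapped. In the remaining granulosa cells Cdkn1a reached 18.6, 82.2, 29.8 and 18.9 CPM, so the log2 ratio of doxorubicin over control was 0.97 in score-high cells and 1.88 in the others. In the remaining cells the list medians were 0.22 for doxorubicin over control and -0.03 for the combination over AMH. Ccng1 and Eda2r, under the level filter within score-high cells, differed more in the remaining cells. Ccng1 was at 15.3, 24.3, 18.6 and 17.1 CPM in score-high cells and 15.4, 41.5, 25.3 and 17.6 in the others, and the death receptor Eda2r at 8.75, 11.9, 12.3 and 8.72 against 5.18, 27.9, 13.1 and 7.13. Mdm2, the ubiquitin ligase of p53, was level in score-high cells at 46.9, 47.7, 41.3 and 43.1 CPM, and Bax was at 88.9, 111, 109 and 94.4.

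Genes named for doxorubicin were chosen for the same direction in both pairs. The highest were Gm2000 (80.2, 107, 96.0 and 65.5 CPM, a predicted gene that shares 82.1% of its 60-base stretches with others), the prostacyclin synthase Ptgis (56.6, 75.4, 45.4 and 29.5), the stress regulator Nupr1 (227, 296, 394 and 303), the cold-inducible RNA-binding protein Rbm3 (184, 261, 316 and 245), the BMP-binding protein Bmper (56.9, 74.0, 82.7 and 63.1) and Tspo (32.7, 42.1, 43.4 and 33.8). Each was higher in the doxorubicin library of each pair, by under 1.5-fold in at least 1 pair. Among the lowest were Ovgp1 (15.6, 6.92, 14.8 and 115), Igfbp5 (28.3, 15.2, 13.2 and 46.9), Thsd4 (42.4, 25.1, 23.1 and 39.3), the glutamate receptor Grm8 (47.9, 28.7, 9.60 and 18.0) and Ogn (37.6, 19.9, 19.2 and 32.3). These 5 were lower past 1.5-fold in both pairs, with the widest gap for Ovgp1 between the combination and AMH. Ovgp1 shares 39.3% of its 60-base stretches with another gene, Gm42890, so its count is uncertain, and the part of RNA from other cells in it was not tested. Grm8 marked score-high cells as well, with 3.30, 2.25, 1.34 and 2.14 CPM in the others.

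With AMH, more genes differed. AMH over control gave 29 genes (0.447%) higher and 66 (1.02%) lower, and the combination over doxorubicin 51 (0.786%) higher and 108 (1.66%) lower, with 6 higher and 23 lower in both. Median-of-ratios scaling, which moved the median of all genes from -0.07 to 0.03 for AMH over control, gave 41 higher and 32 lower there, and 51 and 67 in the other pair. In the remaining granulosa cells the counts were 65 higher (1%) and 136 lower (2.1%), and 80 (1.23%) and 136 (2.1%). Both pairs of an agent use separate libraries, but AMH over control shares its control library with doxorubicin over control.

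Score-high cells in both libraries with AMH held more Igfbp4, another binding protein of insulin-like growth factors, at 32.5, 22.3, 77.3 and 78.1 CPM. Crabp2, which carries retinoic acid, was at 38.5, 41.4, 91.4 and 94.0 CPM. For both genes the 2 libraries with AMH were close to each other and above the 2 without it. Kcnb2, another voltage-gated potassium channel, was at 102, 126, 201 and 204 CPM, the glutamate receptor subunit Grin3a at 15.7, 8.61, 26.3 and 37.9, the α-catenin Ctnna2 at 299, 166, 337 and 480, and Ovgp1 as above. The lowest were Cyp11a1, Grm8, Gas6 and Amh itself, whose values are above, with the monoamine transporter Slc18a2 (123, 112, 53.1 and 34.0 CPM) and the desmosomal gene Dsp (34.5, 36.8, 16.6 and 14.4). In every one of these 6 the libraries with AMH lay below those without. For Cyp11a1 the ratio nearer to 0 went from -1.30 to -0.55 in cells low in steroidogenic transcripts, which were chosen in part on Cyp11a1 itself.

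BMP and SMAD targets, transcripts downstream of AMH, were already higher in score-high cells without added AMH. In the control library 5 of the 6 that passed were past 1.5-fold above the remaining granulosa cells and the sixth, Bambi, a decoy receptor of the pathway, was past it below, beside 6.11% and 7.74% of all genes. The list medians of score-high over remaining cells were 1.00, 1.01, 0.20 and 0.46. Id1 was at 298, 290, 251 and 268 CPM in score-high cells, level to slightly lower with AMH, and at 148, 136, 199 and 183 in the others, higher with AMH in both pairs. Id3 was at 591, 643, 528 and 547 CPM against 291, 304, 441 and 405. In both genes the 2 classes of cells were nearer to each other in the libraries with AMH than in those without. Id2 was at 326, 275, 348 and 468 CPM against 123, 139, 254 and 283, higher with AMH in both classes. Smad6, an inhibitory SMAD, was at 58.5, 69.2, 65.9 and 112 CPM against 15.4, 18.2, 59.1 and 78.2, and Smad7 at 114, 127, 139 and 142 against 63.7, 68.7, 134 and 122. Among 5 targets, AMH over control had a median of 0.31 with 3 above 0 in score-high cells and 0.89 with 5 in the others, beside 32.1% and 37.0% of all genes above 0. The combination over doxorubicin had -0.07 with 2 above 0 and 0.84 with 5, beside 41.2% and 42.1%. Bambi was at 12.1, 13.2, 14.8 and 19.4 CPM in score-high cells against 27.3, 22.2, 29.5 and 34.2, lower in all 4 libraries and past 1.5-fold in all but doxorubicin. It averaged under the filter within score-high cells, as did Id4 (12.3, 13.0, 16.8 and 24.1 CPM) and Smad9 (12.4, 14.4, 14.6 and 22.1), and all 3 were highest with AMH alone. The difference between the classes was not tested, with 1 library per group.

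**Figure D4:**
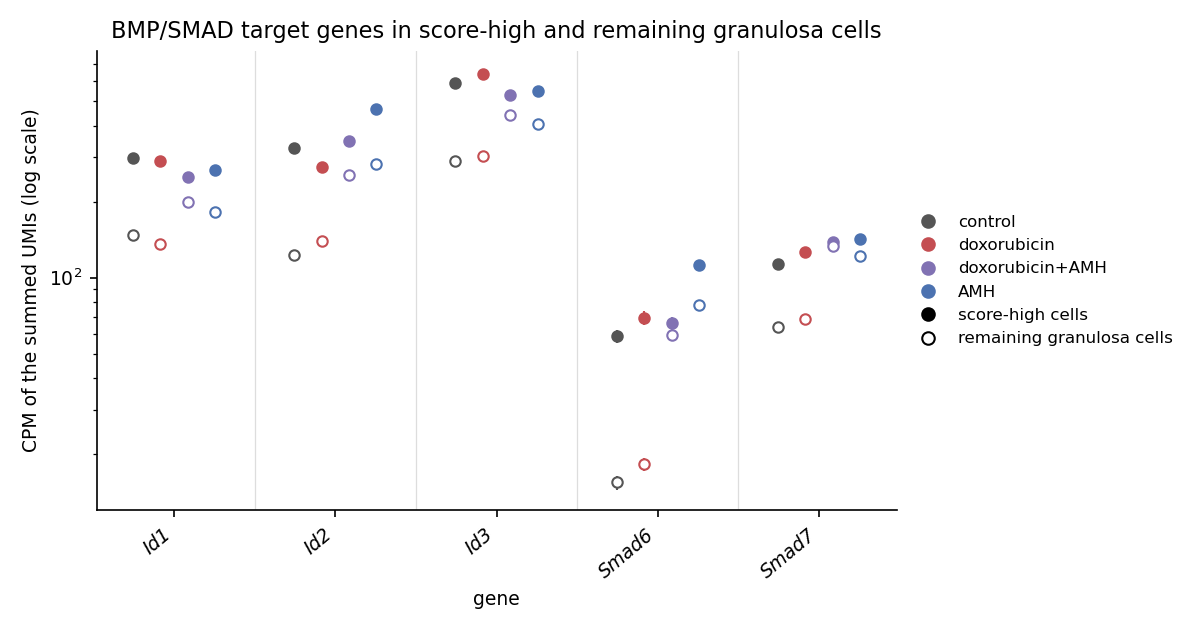
CPM (log axis) of Id1, Id2, Id3, Smad6 and Smad7 (x axis) in score-high (filled) and remaining (open) granulosa cells, 1 colour per library, with exact 95% Poisson intervals. Remaining cells are higher in the libraries with AMH for all 5 genes, while Id1 and Id3 in score-high cells stay between 251 and 298 and between 528 and 643 CPM.

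G2/M genes stood out in the combined library. Of 13 that passed within score-high cells, all 13 were higher than with AMH alone, 10 past 1.5-fold, with a median of 0.75. All 13 were higher than with doxorubicin alone, 9 past that fold, with a median of 0.66. These comparisons share the combined library, and over all genes 49.3% and 41.2% were above 0 and 0.77% and 0.786% higher past 1.5-fold. Top2a was at 99.0, 84.1, 160 and 81.4 CPM, Mki67 at 52.3, 42.2, 71.5 and 34.5, and Ube2c, which helps to end mitosis, at 61.8, 60.3, 123 and 63.0. In all 3 genes the combined library stood above the others. The 7 G2/M genes under the filter were also above 0 in both ratios, Aurkb for example at 0.65 and 0.92. S phase genes showed less of this, with 7 of 7 above 0 over AMH and a median of 0.29. The share of cycling cells in the combined library, 44.5%, was close to that with AMH, 42.6%. In the remaining granulosa cells the 2 G2/M medians were 0.41 and 0.62, with 0 and 8 genes past the fold.

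Antral mural genes were also higher in the combined library than with either agent alone. Of 6 that passed within score-high cells, all 6 were higher in the combined library than with AMH, 4 past 1.5-fold (median 0.78), and all 6 were higher than with doxorubicin, 5 past it (median 1.07), beside 0.77% and 0.786% of all genes past the fold. In the remaining cells all 6 were higher in both comparisons too, with medians of 0.43 and 0.94 and with 0 and 6 past the fold. Inhba was at 178, 105, 236 and 197 CPM, Hsd17b1 at 144, 114, 263 and 147, and Nppc, the peptide that holds the oocyte in meiotic arrest, at 74.7, 65.7, 177 and 103. The doxorubicin library was the lowest of the 4 in each, and for doxorubicin over control none of 6 was above 0 (median -0.29, beside 42.1% of all genes), whereas in the remaining cells 5 of 6 were (median 0.32). For AMH over control the median was -0.04 in score-high cells and 0.78 in the others. High Slc38a5 scores were most frequent in the combined library, in 24.2% of score-high cells and 28.7% of all granulosa cells there. With cells high in any of the 3 other granulosa scores left out, the medians of the combination over AMH and over doxorubicin were 0.60 and 0.87 for antral and 0.55 and 0.54 for G2/M genes. Among the top 10% by score the antral median over AMH was 0.42, and with no level filter 0.50.

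**Figure D5:**
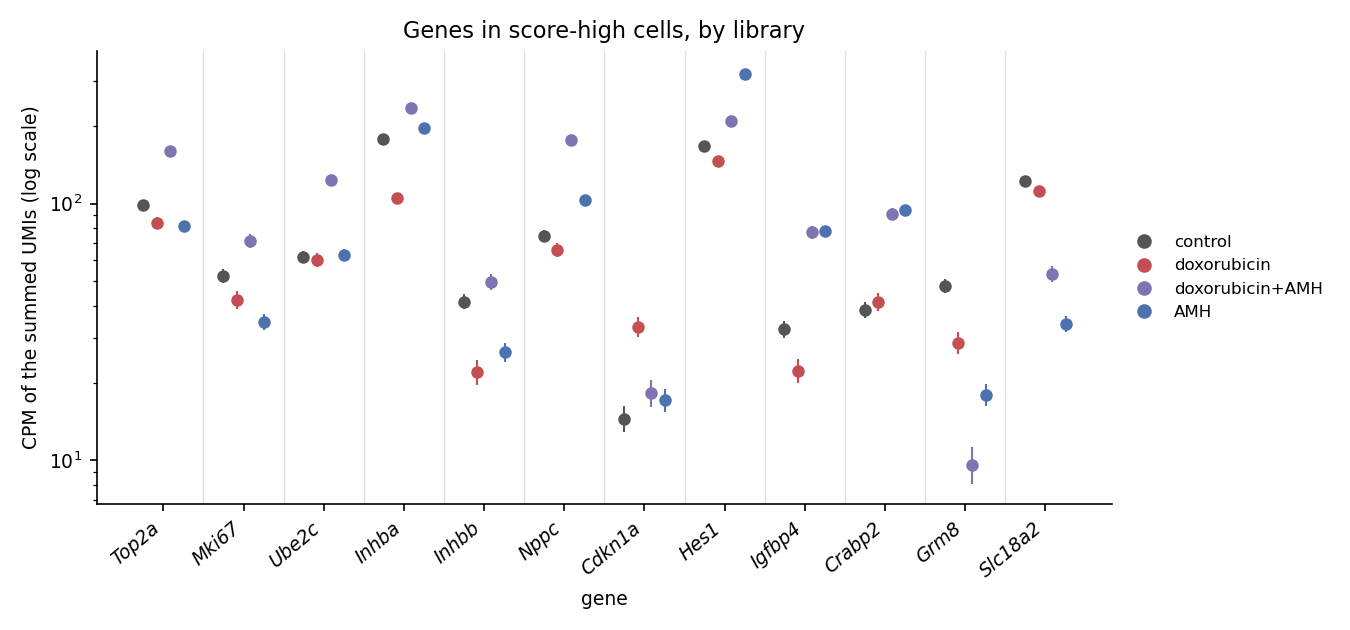
CPM (log axis) of 12 genes (x axis) in score-high cells of each library, with exact 95% Poisson intervals. Top2a, Mki67, Ube2c, Inhba, Inhbb and Nppc are highest in the combined library, Cdkn1a in the doxorubicin library, and Igfbp4 and Crabp2 in both libraries with AMH.

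No atretic or Hippo gene was higher past 1.5-fold in score-high cells in any of the 4 comparisons between libraries. All 8 atretic genes were lower in the combination than with doxorubicin alone, 3 past 1.5-fold (median -0.37), Ghr from 1413 to 815 CPM among them, beside 58.8% of all genes below 0 and 1.66% past the fold. For doxorubicin over control 6 of 8 were above 0, beside 42.1% of all genes, with a median of 0.12, and 4 of 7 Hippo genes were, with a median of 0.06. The 7 Hippo genes were all slightly lower in the combination than in either agent alone, with medians of -0.19 in both comparisons, beside 50.7% (over AMH) and 58.8% (over doxorubicin) of all genes below 0. Hes1, a target of Notch signalling, was at 167, 147, 210 and 319 CPM, and all 3 Notch pathway genes that passed were above 0 for AMH over control (median 0.22), beside 32.1% of all genes.

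The largest differences of ratio between score-high and remaining cells singled out few genes, none of them tested. For doxorubicin, S100a6 was at 26.0, 40.8, 50.2 and 41.3 CPM in score-high cells, higher with doxorubicin in both pairs, and at 46.0, 21.7, 38.7 and 79.4 in the others, lower in both. Glis3 was at 32.9, 34.0, 13.0 and 25.8 CPM against 33.1, 8.43, 5.20 and 28.0, and Krt18 at 19.9, 21.5, 16.8 and 23.5 against 87.0, 46.9, 15.7 and 41.1. In score-high cells both were slightly higher with doxorubicin than in the control, while in the others they were lower. From AMH to the combination both fell in each class, by less in score-high cells. Ovgp1 in the remaining cells was at 202, 6.40, 15.0 and 228 CPM. Kitl, the growth factor that granulosa cells send to the oocyte, was at 203, 151, 143 and 224 CPM in score-high cells, lower with doxorubicin in both pairs, and at 290, 278, 272 and 321 in the others. Cdkn1a and Igfbp5 also had a lower ratio. Grm8 met the rule for both agents, but it was under 5 CPM in every library of the remaining cells and passed the level filter through score-high cells only, so its difference between the classes follows from its level. With each cell given equal weight the smaller Kitl difference went from -0.35 to -0.01.

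For AMH, the kinase gene Dgkb was lower in score-high cells with AMH, at 115, 113, 52.8 and 73.2 CPM, and higher in the others, at 25.9, 23.6, 29.0 and 48.4. Smad6 and the contractile gene Tagln, whose values are above, also had a larger ratio in the others in both pairs. Among the top 10% by score the smaller Dgkb difference was -0.34 in place of -1.28. Fabp3, at 50.5, 62.0, 35.6 and 32.2 CPM against 170, 193, 37.2 and 44.7, and Pip5k1b, at 24.8, 28.8, 18.2 and 18.6 against 131, 114, 34.3 and 43.5, were less reduced in score-high cells. In cells low in steroidogenic transcripts these smaller differences went from 1.24 to 0.00 and from 1.06 to 0.13. Igfbp5 and Krt18 completed the list, and with equal weight per cell the Igfbp5 difference went from 1.09 to 0.23.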

How the data were processed

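Single-cell RNA was measured in 4 pooled ovary libraries, 1 per group. The deposited values are raw UMI counts per gene and cell, made with Cell Ranger 7.0.0 per the file headers. The submitters' processing notes name mm10, R 4.2.0 and Seurat 4.1.0; whether intronic reads were counted is not given in the sources used here. Counts of score-high and of remaining granulosa cells were summed per library and scaled to CPM (Python 3.11.15, numpy 2.4.6, scipy 1.17.1, pandas 2.3.3; Scrublet in scanpy 1.11.5). Before log2 ratios were taken, 5 CPM was added to each value, and genes averaging under 20 CPM were dropped. The ratio step was tested on simulated data. Positions are from GENCODE M21, in which 32235 of 32285 gene IDs matched. Named genes are the 12 highest and 12 lowest by the score-high ratio closest to 0 over libraries, the 6 highest and 6 lowest per agent over its 2 pairs, and the 4 highest and 4 lowest by difference between classes, together with listed genes; 1 of the lowest for doxorubicin is not reported here. Cells, score and gene lists were chosen with earlier results of these data known. The groups, each a single library, were compared without a test. Alternatives changed the score, the gate, the scaling, the filter and the pseudocount. Doublets were scored but kept.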

Additional observations from a re-analysis of the deposited data

Results flagged for a closer look

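Inhbb, the βB subunit of activin and inhibin B, moved in opposite directions between the pairs in score-high cells. It was lower with doxorubicin than in the control, at 22.0 against 41.5 CPM (log2 ratio -0.78), and higher in the combination than with AMH alone, at 49.6 against 26.4 CPM (0.80). In the remaining granulosa cells both ratios were positive, 0.31 and 0.43. Each group is 1 library, so the difference between the pairs was not tested, and 192 named or listed genes were read for such a change of sign.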

How the results depend on the processing

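Beyond the 1-library design, low counts limit genes near 20 CPM. No paired analysis was possible because each group is 1 library and the labels carry no replicate numbers shared between groups. Shares in the order control, doxorubicin, combination and AMH were 13.4, 9.2, 8.81 and 8.53% with the top 10%, and 35.9, 26.1, 29.7 and 28.0% with the top 30%. Without Kcnq5 in the score they were 20.5% with doxorubicin, 13.9% in the combination and 20.2% with AMH. With the top 10%, 35 genes were lower for doxorubicin over control and 31 higher for the combination over AMH. Median-of-ratios scaling gave 181 lower genes in score-high against remaining cells, 32 for AMH over control and 67 for the combination over doxorubicin. With each cell weighted equally, doxorubicin over control gave 8 higher and 11 lower, the combination over AMH 35 and 56, and 179 were lower for the combination over doxorubicin. A pseudocount of 1 CPM gave 73 lower for the combination over AMH. With no level filter 552 genes were lower in score-high cells, and higher and lower counts were 15 and 49 (doxorubicin over control), 104 and 126 (combination over AMH), 78 and 138 (AMH over control) and 92 and 202 (combination over doxorubicin). The antral median for AMH over control, -0.04, was 0.21 with the top 10%, 0.057 without the highest doublet scores, 0.065 with median-of-ratios scaling, 0.26 with equal cell weights and 0.055 in cells low in steroidogenic transcripts. With equal cell weights the G2/M median for AMH over control was 0.065, and with no filter the BMP and SMAD median for the combination over doxorubicin was 0.067. The causes were not tested. Leaving out cells with Cyp17a1, Cyp11a1 or Star, and cells high in other scores, was added after seeing the data.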

Other observations

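Further groups were read in score-high cells. Of the 7 genes listed for AMH receptors and SMADs all 7 passed, and none was past 1.5-fold in any of the 4 comparisons between libraries: Bmpr1a was at 193, 193, 174 and 196 CPM and Acvr1 at 35.4, 32.3, 31.3 and 33.3 CPM. The stress gene Klf6 was the 1 dissociation gene of 19 that was higher past 1.5-fold in all libraries, at 253, 303, 275 and 307 CPM against 140, 139, 131 and 167. Of the 11 p53 targets that passed over both classes, 1 was of that kind. It was Ddit4l, a repressor of mTOR signalling, at 213, 211, 222 and 175 CPM against 106, 107, 87.5 and 88.7. Over all genes tested 4.07% were higher past the fold in all libraries, so a count of 1 does not set either list apart.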
